A study of Mus musculus with 8 samples.

Results

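Psd, Psd2, Psd3 and Psd4, together with Iqsec1, Iqsec2 and Iqsec3, encode guanine nucleotide exchange factors that act on the small GTPase encoded by Arf6. These 8 genes were taken by name out of the 22430 genes listed in a count table from mouse brain, and all 8 passed the filter on low counts that left 16730 genes for testing. They were chosen by family, and with the fold changes of 24-month-old (24m) against 6-month-old (6m) brain already known. Psd3 was among the genes with the largest fold changes in that comparison, and the rule sets no threshold on a value. The fold changes of the 8 genes between the ages are therefore given as a description. No p is printed for them, and which of them passed the calling thresholds is counted only to describe them.

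The mice were male C57Bl/6JRj animals without any genetic change or treatment, 4 of 6 months (young adult) and 4 of 24 months (aged). The tissue is labelled whole brain, and the protocol names a brain hemisphere from each animal. Poly(A) RNA was made into directional libraries, with 1 library per animal, and read on an Illumina instrument. A bulk library of this kind mixes all cell types of the brain, and in it fewer cells of a type and less RNA per cell cannot be told apart.

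Arf6 is a small GTPase of the plasma membrane and the endosomes that steers membrane recycling, phosphoinositide synthesis and the actin cytoskeleton. It is active when bound to GTP. Exchange factors load it with GTP through a catalytic Sec7 domain, and GTPase-activating proteins return it to the GDP-bound state. In neurons the Psd proteins (also called EFA6) and the Iqsec proteins (also called BRAG) take part in dendrite and spine formation and in the trafficking of receptors at synapses.

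A stretch shared by the exchange factors is shown first, as the window of their aligned coding sequences with the most identical bases. In an alignment of the coding sequences, this window of 60 bases lies in the part coding for the Sec7 domain and is shown for 6 of the 7 genes. Psd2, which is not shown, has the same base at 18 of the 18 marked positions. Capitals mark the 18 bases that are identical in all 6 genes, and each line reads 5′ to 3′ on the coding strand, from GENCODE M39 transcripts on assembly GRCm39.
Psd, chr19:46308743-46308802, minus strand: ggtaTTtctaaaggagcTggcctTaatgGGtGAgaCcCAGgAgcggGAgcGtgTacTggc
Psd3, chr8:68358964-68359023, minus strand: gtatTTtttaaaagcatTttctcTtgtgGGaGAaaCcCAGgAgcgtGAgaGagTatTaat
Psd4, chr2:24291233-24291292, plus strand: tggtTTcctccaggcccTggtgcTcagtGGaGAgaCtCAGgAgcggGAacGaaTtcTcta
Iqsec1, chr6:90655015-90655074, minus strand: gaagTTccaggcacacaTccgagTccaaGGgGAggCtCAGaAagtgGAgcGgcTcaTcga
Iqsec2, chrX:150995072-150995131, plus strand: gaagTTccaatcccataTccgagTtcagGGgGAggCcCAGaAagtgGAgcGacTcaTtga
Iqsec3, chr6:121366968-121367027, minus strand: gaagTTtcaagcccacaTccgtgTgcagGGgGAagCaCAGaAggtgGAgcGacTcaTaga

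Over the whole aligned coding sequence, Psd2 and Psd3 were identical at 60.3% of bases and Psd and Psd3 at 56.0%, while Psd4 was the most distant Psd gene (46.9% with Psd3). Iqsec1 and Iqsec2 were the closest pair, at 69.0%. A Psd gene and an Iqsec gene shared 37.6% to 43.8% of aligned bases. The longest run of identical bases between the canonical transcripts of any 2 exchange factors was 33 bases, and for Psd3 with any of the others it was 19 bases. Runs were sought on either strand. They are much shorter than the average read length that the study reports, so only a much shortened read could lie wholly within such a run. Arf6 shared a run of 39 bases with Arf1.

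Library totals were 63460940 to 74513571 counts at 6m and 72936345 to 103462414 at 24m, with means of 70863900 and 82534800. A two-sided exact permutation test gave p = 0.0857, where 0.0286 is the smallest p possible with 4 libraries per age. A test of this size has little power and does not show that the totals were equal. The deepest library, 24m replicate 1, stood apart from the other 24m libraries. A chi-square comparison of counts gave 182 to 425 per degree of freedom for its pairs with them, against 8.24 to 61.8 for every other pair of the same age. The values of the 8 genes are therefore also given without it.

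Levels below are counts per 1e+06 (CPM) after trimmed mean of M values (TMM) scaling, which serve to compare a gene between libraries. Of the 8 genes, 6 were called higher at 24m (Psd2, Psd3, Psd4, Iqsec1, Iqsec2 and Iqsec3) and 0 lower. DESeq2 and limma-voom also called 0 of them lower, and Arf6 alone was lower at the adjusted p without the fold-change threshold, as were 29.9% of all tested genes. A gene was called at an edgeR adjusted p of at most 0.05 together with a log2 fold change of at least 0.58 in either direction. By the same rule 25.3% of all tested genes were called higher and 18.3% lower (43.6% in either direction), and nothing is read from the comparison of these shares because the comparison itself chose the genes. The median log2 fold change of the 8 genes was 0.95, and that of all tested genes was -0.0034. With library totals in place of TMM scaling, the median of all tested genes was 0.21, and fold changes here are relative to TMM scaling. The balance of calls moved with the scaling: TMM gave 4237 genes higher and 3058 lower, library totals 5449 and 1746, and quantile normalization with DESeq2 3573 and 3891. In 5 of the 8 genes every 24m library lay above every 6m library, as held for 28.4% of all tested genes. In Arf6 every 24m library lay below every 6m library, as held for 26.8%.

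**Figure D1:**
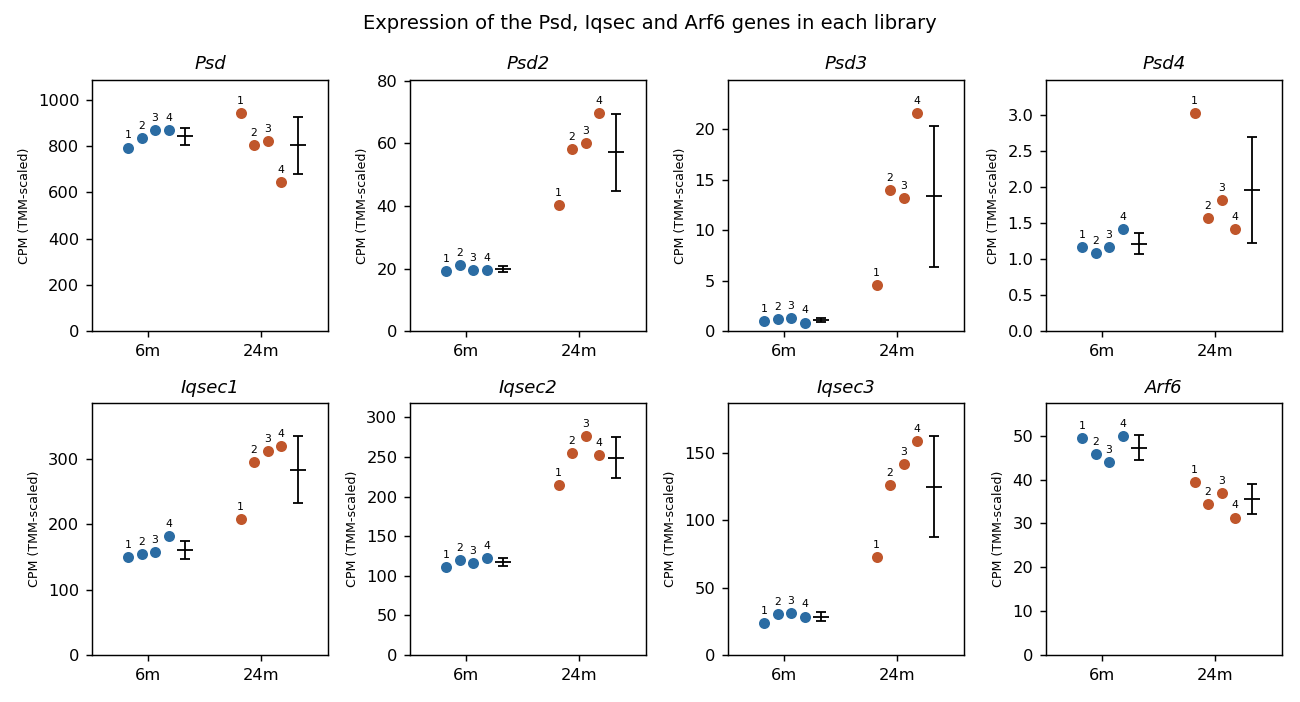
Expression of the 8 genes in each library, in CPM after TMM scaling on linear axes that start at 0, with a panel per gene. Points are single libraries numbered by replicate, and bars show the mean ± SD of the 4 libraries of an age. The 24m points of Psd2, Psd3, Iqsec1, Iqsec2 and Iqsec3 lie above all 6m points, those of Arf6 lie below, and Psd and Psd4 overlap.

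Arf6 (ENSMUSG00000044147, chr12:69418826-69420557, GRCm39, plus strand) is the GTPase on which the 7 exchange factors act. It had 49.5, 45.8, 44.0 and 49.9 CPM in 6m replicates 1 to 4 and 39.4, 34.5, 36.9 and 31.4 CPM in 24m replicates 1 to 4. Its 24m libraries were all below its 6m libraries, with 24m replicate 4 the lowest. The mean went from 47.3 ± 2.89 to 35.6 ± 3.45 CPM (SD, n = 4 per age), a log2 fold change of -0.41 ± 0.09 (SE), which is under the fold-change threshold. Its size depended on the processing: the log2 fold change was -0.44 without 24m replicate 1, -0.20 with library totals alone and -0.19 with the trend over GC content removed. The sign did too, with a value of 0.17 when the trend over length was removed. Arf6 is a short gene with a single annotated transcript of 1632 bases in 2 exons, and 317 of those bases are also covered by the long noncoding gene Gm9887 on the other strand.

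Psd (ENSMUSG00000037126, chr19:46300522-46315612, minus strand) encodes EFA6A, the Psd protein best known from brain. It had 795, 838, 868 and 871 CPM in 6m replicates 1 to 4 and 946, 805, 825 and 645 CPM in 24m replicates 1 to 4. The 24m values spread on both sides of the 6m values, with the highest in 24m replicate 1 and the lowest in 24m replicate 4. The means were 843 ± 35.6 and 805 ± 123 CPM (SD, n = 4), with a log2 fold change of -0.07 ± 0.12 (SE), and -0.13 without 24m replicate 1. The sign of this value depended on the processing, and it was positive in 4 of 21 alternatives, among them library totals alone (0.14) and leaving out 24m replicate 4 (0.03). Nfkb2 overlaps 1933 exonic bases of Psd on the other strand and is also in the count table.

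Psd2 (ENSMUSG00000024347, chr18:36097883-36150889, plus strand) encodes EFA6C, an exchange factor of neurons. It had 19.3, 21.2, 19.4 and 19.7 CPM in 6m replicates 1 to 4 and 40.3, 58.2, 60.04 and 69.9 CPM in 24m replicates 1 to 4. All 24m libraries were above all 6m libraries, and 24m replicate 1 was the lowest of them. Its mean of 19.9 ± 0.904 CPM at 6m and 57.1 ± 12.3 CPM at 24m differed 2.87-fold, a log2 fold change of 1.52 ± 0.15 (SE), and of 1.68 without 24m replicate 1. Nrg2 shares 1071 exonic bases with Psd2 on the other strand and is in the count table too.

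Psd3 (ENSMUSG00000030465, chr8:68141734-68664679, minus strand) encodes EFA6D and had the largest fold change of the 8 genes. It had 67, 84, 78 and 57 counts in 6m replicates 1 to 4 and 472, 1120, 1100 and 1889 counts in 24m replicates 1 to 4. Scaled to CPM, these were 1.02, 1.19, 1.29 and 0.862 at 6m and 4.56, 14.0, 13.2 and 21.7 at 24m. The lowest 24m library, replicate 1, was thus still above the highest 6m library, and the 24m libraries differed among themselves far more than the 6m libraries. The mean was 1.09 ± 0.189 CPM at 6m and 13.3 ± 6.99 CPM at 24m (SD, n = 4), 12.2-fold apart. The log2 fold change of 3.61 ± 0.42 (SE) ranked 13 among the 16730 tested genes, counted from the largest. Without 24m replicate 1 it was 3.92.

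Psd3 is also the longest of the 8 genes. It spans 522946 bases, and the union of its exons covers 18239 bases, more than 98.0% of tested genes. Its canonical transcript has 17 exons and 12403 bases, of which 3870 are coding and 7890 belong to the 3′ untranslated region. The long noncoding genes Gm63914 and Gm15991 overlap 1332 and 114 exonic bases of Psd3 on the other strand, and neither is in the count table.

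Psd4 (ENSMUSG00000026979, chr2:24257592-24304966, plus strand) encodes EFA6B, known mainly from epithelial cells. It had 77, 77, 70 and 94 counts in 6m replicates 1 to 4 and 314, 126, 151 and 123 counts in 24m replicates 1 to 4. In CPM these were 1.17, 1.09, 1.16 and 1.42 at 6m and 3.03, 1.57, 1.81 and 1.41 at 24m. The ages overlapped, since 24m replicate 4 lay just under 6m replicate 4, and 24m replicate 1 was far above the rest. Psd4 had a mean of 1.21 ± 0.145 CPM at 6m and 1.96 ± 0.735 CPM at 24m, with a log2 fold change of 0.69 ± 0.25 (SE). Without 24m replicate 1 the log2 fold change of Psd4 was 0.42 and it was no longer called. The call was also lost without 24m replicate 3 or 6m replicates 1, 2 or 3, where the log2 fold change was 0.65 to 0.73.

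Iqsec1 (ENSMUSG00000034312, chr6:90633070-90965667, minus strand) encodes BRAG2, which acts in the internalization of AMPA receptors and in integrin recycling. It had 150.0, 155, 157 and 182 CPM in 6m replicates 1 to 4 and 208, 295, 312 and 320 CPM in 24m replicates 1 to 4. Every 24m library was higher than every 6m library, with 24m replicate 1 closest to the 6m values. The mean was 161 ± 14.2 CPM at 6m and 284 ± 51.4 CPM at 24m (SD, n = 4). Iqsec1 thus differed 1.76-fold, a log2 fold change of 0.82 ± 0.14 (SE), and of 0.96 without 24m replicate 1. With the trend over length removed the value was 0.24, and Iqsec1 was no longer called.

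Iqsec2 (ENSMUSG00000041115, chrX:150927171-151008232, plus strand) encodes BRAG1, a protein of the postsynaptic density of excitatory synapses. It had 111, 119, 116 and 122 CPM in 6m replicates 1 to 4 and 214, 255, 276 and 252 CPM in 24m replicates 1 to 4. The ages were well apart, and of the called genes among the 8, Iqsec2 had the smallest spread at 24m relative to its mean. It went from 117 ± 4.76 to 249 ± 25.8 CPM, 2.12-fold, a log2 fold change of 1.09 ± 0.09 (SE), and of 1.17 without 24m replicate 1.

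Iqsec3 (ENSMUSG00000040797, chr6:121349884-121450733, minus strand) encodes BRAG3, which is found at inhibitory synapses with gephyrin. It had 23.9, 30.5, 31.0 and 28.5 CPM in 6m replicates 1 to 4 and 72.3, 126, 142 and 159 CPM in 24m replicates 1 to 4. All 24m libraries lay above the 6m libraries, and 24m replicate 1 was again the lowest of them. The mean went from 28.5 ± 3.21 to 125 ± 37.4 CPM (SD, n = 4), 4.39-fold, a log2 fold change of 2.13 ± 0.22 (SE) that was second in size to that of Psd3 among the 8 genes. Without 24m replicate 1 it was 2.34.

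Among the 24m libraries, replicate 1 was the lowest in Psd2, Psd3, Iqsec1, Iqsec2 and Iqsec3 and the highest in Psd, Psd4 and Arf6. Replicate 4 was the highest 24m library in Psd2, Psd3, Iqsec1 and Iqsec3 and the lowest in Psd, Psd4 and Arf6. The 5 genes whose ages separated upward therefore ordered these 2 libraries the opposite way to Psd, Psd4 and Arf6.

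To compare levels between genes, CPM were divided by the exonic length in kilobases (RPKM). At 6m, Psd was the highest of the 8 genes at 103.4 ± 4.37 RPKM, followed by Arf6 at 29.0 ± 1.77 and Iqsec2 at 16.6 ± 0.673. Iqsec1 at 10.04 ± 0.882, Psd2 at 2.41 ± 0.110 and Iqsec3 at 1.70 ± 0.191 RPKM came next. Psd4 at 0.0978 ± 0.0117 and Psd3 at 0.0598 ± 0.0104 RPKM were the lowest (SD, n = 4 throughout). No neighbours in this order overlapped in the ranges of their libraries at 6m.

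At 24m, Psd was still highest at 98.7 ± 15.1 RPKM, and Iqsec2 at 35.2 ± 3.65 stood above Arf6 at 21.8 ± 2.11. The ranges of Arf6 and Iqsec1 (17.7 ± 3.20 RPKM) overlapped, as did those of Iqsec3 (7.45 ± 2.23 RPKM) and Psd2 (6.92 ± 1.49 RPKM), so these neighbours did not differ beyond their spread. Psd3 at 0.732 ± 0.383 RPKM stood above Psd4 at 0.158 ± 0.0593 RPKM, the reverse of their order at 6m. With the length of the longest transcript in place of all exons, several neighbours changed. At 6m the ranges of Psd4 and Psd3 then overlapped, as did those of Iqsec1 and Iqsec2, and Iqsec3 (2.84 RPKM) overlapped with Psd2 (2.53 RPKM) and stood above it. At 24m Iqsec1 (35.3 RPKM) overlapped with Iqsec2 (40.8 RPKM) and stood above Arf6 (21.8 RPKM) without overlap.

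**Figure D2:**
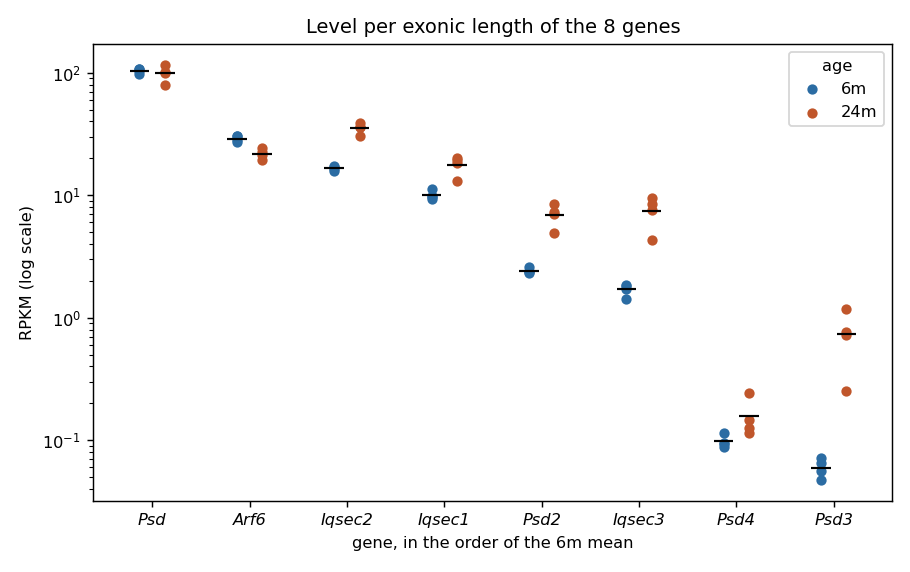
Level per exonic length of the 8 genes, in RPKM on a log scale, with genes ordered by their 6m mean. Points are single libraries, coloured by age, and horizontal bars are the means of 4 libraries. Psd stands highest at both ages, and Psd3 moves from 0.0598 RPKM, below Psd4, to 0.732 RPKM, above it.

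Summed per exonic length, the 4 Psd genes gave 106 ± 4.38 RPKM at 6m and 107 ± 13.4 RPKM at 24m. Psd alone made up 97.6 ± 0.132% of that sum at 6m and 92.4 ± 2.68% at 24m (SD, n = 4). Psd2 went from 2.28% to 6.71% of it and Psd3 from 0.0565% to 0.731%. With the longest transcript as length, Psd2 held 1.43% and 4.303% and Psd3 0.0499% and 0.659%. Psd thus made up most of the sum at both ages, and Psd3 a small part of it.

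The 3 Iqsec genes summed to 28.3 ± 1.57 RPKM at 6m and 60.4 ± 8.80 RPKM at 24m. Iqsec2 held 58.6% of this sum at 6m and 58.7% at 24m. Iqsec3 went from 5.99 ± 0.586% to 12.1 ± 2.27% and Iqsec1 from 35.4 ± 1.39% to 29.2 ± 1.41% of it. Which Iqsec gene held the most depended on the length used: with the longest transcript, Iqsec1 held 47.6% and Iqsec2 45.7% at 6m, and 39.7% and 46.4% at 24m. Of all 7 exchange factors together (134 ± 5.75 RPKM at 6m and 167 ± 9.31 RPKM at 24m), Psd made up 77.0% at 6m and 59.0% at 24m.

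The fold change was also set beside the length of each gene, because long genes as a class had higher values at 24m in these libraries. Among the 789 tested genes within 20% of the exonic length of Psd3, the median log2 fold change was 0.61 and 402 (51.0%) were called higher. None of these 789 had a larger log2 fold change than Psd3. As Psd3 was chosen with its value known and ranked 13 among 16730 tested genes, few genes of any length could exceed it. Its place among them is a description only. For Iqsec3 (16764 bases of exons), 62 of 1026 genes of like length had a larger value than its own, and for Psd2 (8248 bases) 405 of 3823.

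Iqsec1 and Psd4 lay nearer to the genes of their length. Of 1206 genes as long as Iqsec1 (16041 bases), 461 had a larger log2 fold change, and of 2262 as long as Psd4 (12393 bases), 856 did. Iqsec2 (7073 bases) was exceeded by 669 of 4045 genes, and Psd (8155 bases) by 2561 of 3842. Arf6 stood at the other end: 839 genes of its length had a median log2 fold change of -0.60, below its own value of -0.41, and 292 had a larger value. With the trend over length removed, the log2 fold change was 2.93 for Psd3, 1.53 for Iqsec3, 1.21 for Psd2, 0.88 for Iqsec2, 0.30 for Psd4, 0.24 for Iqsec1, -0.35 for Psd and 0.17 for Arf6. Psd4 and Iqsec1 were then no longer called, and the sign of Arf6 was turned.

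**Figure D3:**
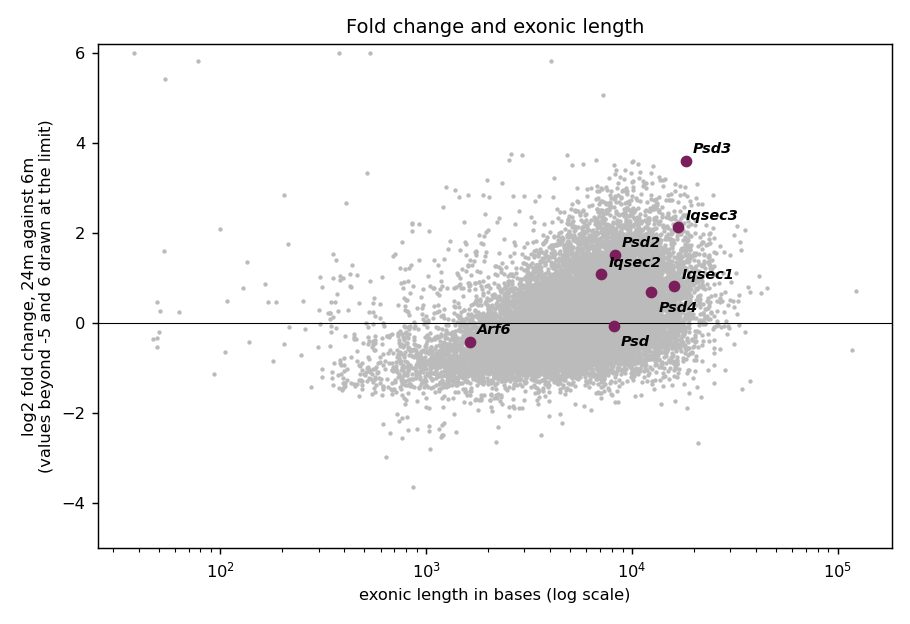
Log2 fold change at 24m against 6m over the exonic length in bases (log scale), with each tested gene in grey and the 8 named genes in purple. Values beyond the limits of the vertical axis are drawn at the limit. Psd3, with 18239 bases of exons and a log2 fold change of 3.61, lies above all genes within 20% of its length, and Arf6 lies among the shorter genes below 0. Psd3 was chosen with its fold change known.

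In GC content the 8 genes were not alike. Exonic GC was 43.7% in Psd3, lower than the median of 49.3% over tested genes, and 58.2% in Psd, 59.2% in Iqsec2 and 60.5% in Arf6. Psd2, Psd4, Iqsec1 and Iqsec3 lay between 51.1% and 53.7%. Psd3 thus had the lowest GC content of the 8.

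The genes whose pattern over the 8 libraries was most like that of Psd3 were sought by the mean absolute difference of centred log2 CPM, over 13970 genes whose mean over the 8 libraries was 1 CPM or more. A gene could pass this minimum through its 24m libraries alone, as Amot did (0.486 CPM at 6m and 5.13 CPM at 24m). The 5 nearest were Megf9 (0.123), Amot (0.124), Kcnd3 (0.126), Slc2a13 (0.140) and Uhmk1 (0.161), where the median over all genes was 1.70. Kcnd3, which encodes a voltage-gated potassium channel, had 1.01 ± 0.294 CPM at 6m and 10.2 ± 5.09 CPM at 24m (SD, n = 4). Slc2a13, which encodes a myo-inositol transporter, had 1.44 ± 0.408 and 17.5 ± 8.34 CPM. Without 24m replicate 1, 4 of the 5 were again among the 5 nearest.

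Of the other 7 genes, Iqsec3 was nearest to Psd3 by this measure (0.659), followed by Psd2 (0.953), Iqsec2 (1.16) and Iqsec1 (1.30). Psd4 (1.55) was close to the median gene, and Psd (1.74) and Arf6 (1.91) were beyond it. As Psd3 was picked for its difference between the ages, the likeness mostly restates that difference.

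**Figure D4:**
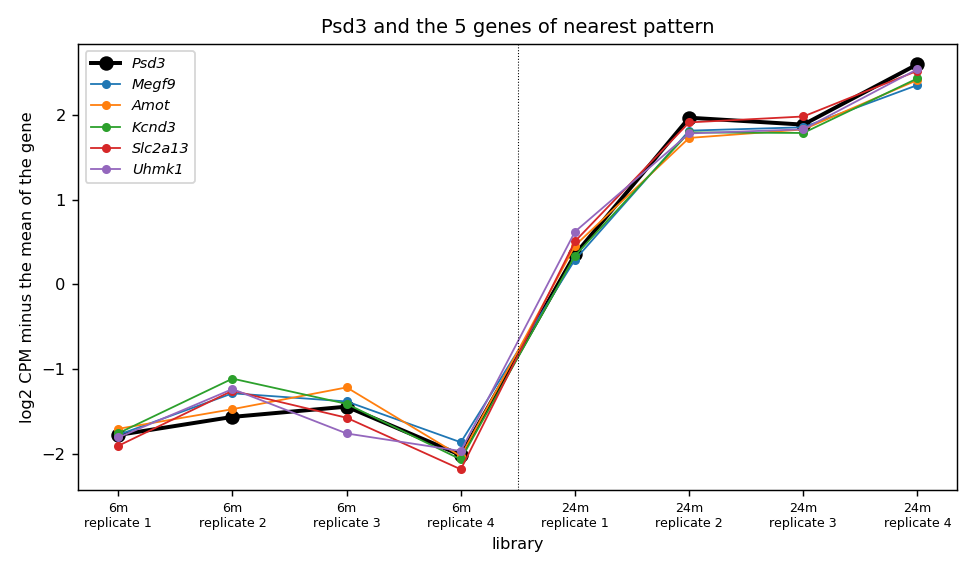
Psd3 and the 5 genes of nearest pattern over the 8 libraries, as log2 CPM minus the mean of each gene. Points are single libraries, and lines only join the points of a gene, since replicates have no order. In all 6 genes 24m replicate 1 lies between the 6m libraries and the other 24m libraries.

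The other genes of the Arf pathway were described by lists drawn up from general knowledge, with p-values adjusted over all 16730 genes. Of 9 other Arf exchange factors, 4 rose (Cyth3, Arfgef1, Arfgef2 and Arfgef3), 1 fell (Cyth2) and 4 were not called, with a median log2 fold change of 0.48. Of all tested genes, 25.3% were called higher and 18.3% lower. Cyth3, a cytohesin that can act on Arf6, rose from 7.36 ± 0.742 to 20.2 ± 1.64 CPM (log2 fold change 1.46 ± 0.11 SE, edgeR adjusted p = 2.42e-05). Arfgef3, a relative of the Golgi exchange factors, rose from 4.37 ± 0.850 to 15.1 ± 7.26 CPM (1.79 ± 0.36, adjusted p = 0.00193), and Arfgef2 from 21.5 ± 0.301 to 44.2 ± 11.7 CPM (1.04 ± 0.17, adjusted p = 0.000691). Cyth2, the cytohesin also called ARNO, fell from 281 ± 6.92 to 182 ± 39.4 CPM (-0.63 ± 0.14, adjusted p = 0.00316), and in these 4 genes the ages did not overlap, as in 28.4% of all tested genes upward and 26.8% downward. In Arfgef1 they did overlap. Without 24m replicate 4 the value of Cyth2 was -0.52, and it was then not called. With the trend over length removed, Cyth3 and Arfgef3 were still higher and Arfgef1 and Arfgef2 were not, where 3554 of all tested genes were higher and 2871 lower.

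Among the 5 Arf GTPases other than Arf6, 1 rose, 1 fell and 3 were not called, with a median log2 fold change of 0.13. Among all tested genes 25.3% rose and 18.3% fell. Arf3, which works at the Golgi, rose from 181 ± 25.5 to 411 ± 101 CPM (1.19 ± 0.19, edgeR adjusted p = 0.000573). Arf5 fell from 442 ± 32.6 to 253 ± 71.9 CPM (-0.81 ± 0.17, edgeR adjusted p = 0.0029). It was no longer called with the trend over length (-0.35) or over GC content (-0.55) removed. Arf6, with its log2 fold change of -0.41, lay between these.

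The GTPase-activating proteins, which oppose the exchange factors, had 11 of 23 genes higher and 0 lower at 24m by edgeR, with a median log2 fold change of 0.56. The shares over all tested genes were 25.3% higher and 18.3% lower. Acap2, which acts on Arf6, rose from 2.07 ± 0.345 to 8.89 ± 3.51 CPM (2.098 ± 0.30, edgeR adjusted p = 0.000353). Asap2 rose by 1.86 ± 0.18 (edgeR adjusted p = 6e-05) and Agap1 by 1.17 ± 0.22 (0.00156) on the log2 scale. DESeq2 and limma-voom also called 0 lower, and Smap1 was the 1 gene of the list that was lower at an unadjusted p under 0.05. Smap1 (-0.42) also passed the adjusted p (edgeR, 0.00374) but not the fold-change threshold, and with the trend over GC content removed 1 gene of the list was called lower. With the trend over length removed, 6 of the 11 were still higher, and Agfg1, Git2, Asap1, Agap1 and Arap2 were not. All tested genes then had 3554 higher and 2871 lower.

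Of 13 effectors and recycling partners of Arf6, 8 rose and 0 fell by edgeR, with a median of 0.83. By the same rule 25.3% of all tested genes rose and 18.3% fell. DESeq2, limma-voom and an unadjusted p under 0.05 also gave 0 lower. Tbc1d24, which encodes an Arf6-binding protein of synaptic vesicle traffic, rose from 2.71 ± 0.493 to 14.3 ± 3.63 CPM (2.40 ± 0.21, edgeR adjusted p = 4.11e-05). Spag9, an adaptor for motor proteins, rose by 1.88 ± 0.27 (edgeR adjusted p = 0.00038) and Rab11fip4, a protein of the recycling endosome, by 1.82 ± 0.14 (2.42e-05). Pip5k1a and Pip5k1c, which make phosphatidylinositol bisphosphate downstream of Arf6, and Pld1 were also among the 8. With the trend over length removed, 5 of the 8 were still higher, and Pip5k1a, Mapk8ip3 and Rab11fip3 were not. Of all tested genes, 3554 were then higher and 2871 lower.

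Of 9 genes for proteins that bind Psd or Iqsec proteins, 1 rose and 0 fell by edgeR, with a median of 0.12. DESeq2 and limma-voom also gave 0 lower, and Calm2 was the 1 gene lower at an unadjusted p under 0.05. Calm2 (-0.43) also passed the adjusted p (edgeR, 0.00211) but not the fold-change threshold, and with the trend over GC content removed 1 gene of the list was called lower. The gene that rose was Gphn, which encodes gephyrin, the scaffold of inhibitory synapses that binds Iqsec3. It rose from 18.3 ± 3.89 to 35.5 ± 7.44 CPM (log2 fold change 0.95 ± 0.19, edgeR adjusted p = 0.00183), where Iqsec3 had a log2 fold change of 2.13. Dlg4, the scaffold of excitatory synapses and a partner of Iqsec2, was not called. Over all tested genes 25.3% were called higher and 18.3% lower, and no list was tested as a set. With the trend over length removed, neither Cyth2 nor Gphn was called.

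**Figure D5:**
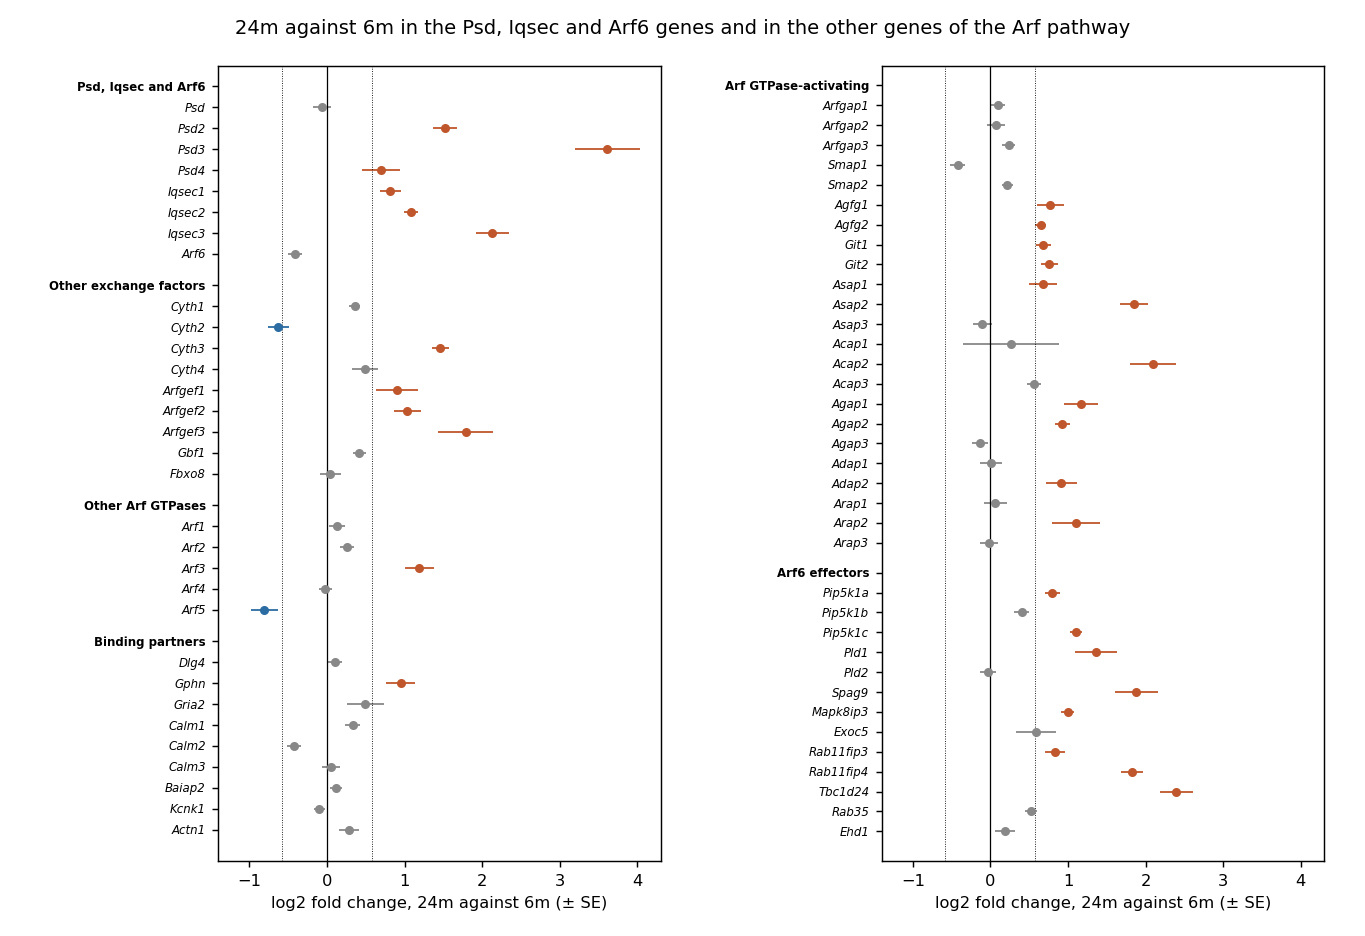
Log2 fold change at 24m against 6m ± SE for the 8 genes (top left) and for the lists of other Arf pathway genes. Orange marks genes called higher, blue those called lower and grey those not called, and dotted lines mark the fold-change threshold of 0.58 in both directions. Psd3 lies farthest to the right at 3.61, and called genes of the GTPase-activating and effector lists all lie on the right.

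Markers of the cell types of the brain were measured in the same libraries, since the 8 genes are expressed in several of them. They were called by the same rule, which called 25.3% of all tested genes higher and 18.3% lower. Neuronal markers, with 10 of 10 tested, summed to 4822 to 5284 CPM at 6m and 5640 to 5886 CPM at 24m without overlap, with 4 genes higher and 1 lower. Astrocyte markers summed to 2892 to 3826 and 2847 to 3844 CPM, with 5 of 8 higher and 1 lower, and oligodendrocyte markers to 3456 to 4323 and 3713 to 4326 CPM, with 1 of 8 higher. Microglia markers summed to 426 to 455 and 446 to 591 CPM, with 3 of 8 higher. Endothelial markers summed to 83.7 to 121 CPM at 6m and 52.7 to 77.1 CPM at 24m without overlap, with 1 of 8 higher and 2 lower. The library that stood apart, 24m replicate 1, had the highest sum of the 8 libraries for neurons, astrocytes, oligodendrocytes and microglia and the lowest for endothelial cells. No marker was at 0 in any library. The part of these shifts in the values of the 8 genes was not tested.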

How the data were processed

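RNA from 8 male mice (4 of 6m, 4 of 24m) was sequenced by the study as poly(A) directional paired-end libraries. The authors trimmed adapters with Trim Galore 0.4.11 and aligned reads to GRCm39 with HISAT2 2.1.0 (versions per the submitters' processing notes), and counted them per Ensembl gene with featureCounts. The deposited values are raw counts per gene and library, with no replicates pooled. The strand and multimapping settings of the counting are not given in the sources used here, which leaves the values of genes with a partner on the other strand uncertain. For their own tests the authors removed low counts, normalized by quantiles and row medians and ran DESeq2. Here the raw counts went into the tests, and quantile normalization with DESeq2 served as an alternative.

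Of 22430 listed genes, 149 (0.312% of counts) matched no gene of GENCODE M39, a later annotation of the same assembly, from which symbols, positions, exonic lengths and GC were taken. Genes over 5 counts in 4 or more libraries entered the quasi-likelihood test (edgeR 4.0.16, R 4.3.3), with TMM factors, age as the only term and Benjamini-Hochberg adjustment over 16730 genes. Calls needed an adjusted p no higher than 0.05 and an absolute log2 fold change no lower than 0.58, as in the study. Standard errors came from the fold change divided by the root of the F statistic. CPM are TMM-scaled, RPKM are CPM per kilobase of exons, and log2 CPM used a prior count of 2. Coding sequences were aligned with MAFFT 7.526. On simulated data for this comparison over 16730 genes, 77.5% of 200 genes with a log2 change of 1 were recovered, 6 unchanged genes were called, and 0 when none was changed.

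The genes and the gene lists were chosen with earlier results of these data known. Named are all 8 genes, up to 3 called genes with the largest and 3 with the smallest log2 fold change per pathway list with a mean of at least 1 CPM, and the 5 genes nearest to Psd3. Genes named beyond these were added after their values were seen. No pair of libraries of the same age agreed within sampling noise (chi-square per degree of freedom of 8.24 or more), and each animal was 1 replicate. Alternatives were other scaling factors, filters, thresholds and tests (DESeq2 1.42.0, limma-voom with limma 3.58.1), thinning to the smallest library, omission of single libraries, a block on the replicate number, and removal of trends over length or GC.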

Additional observations from a re-analysis of the deposited data

Results flagged for a closer look

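Among 52 groups of 4 libraries examined for a library far from the others, 1 was found, and chance gives about 1 in 20. It was Rab11fip4 at 6m, where replicate 1 had 32.3 CPM and the remaining 3 libraries had 40.3 to 41.5 CPM.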

How the results depend on the processing

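Between 5 and 6 of the 8 genes were called higher when a library was left out, and 0 were called lower, where 3825 to 4673 of all tested genes were higher and 2615 to 3592 lower. Over 21 alternatives the log2 fold change was 2.93 to 3.92 for Psd3, 1.53 to 2.37 for Iqsec3, 1.21 to 1.75 for Psd2 and 0.88 to 1.31 for Iqsec2, which were called in all 20 that used both thresholds. Iqsec1 (0.24 to 1.05) was called in 19 and Psd4 (0.30 to 0.90) in 11. Psd ran from -0.35 to 0.28, with a value of 0.28 after quantile normalization and DESeq2, and Arf6 from -0.44 to 0.17, positive only with the length trend removed. Psd3 had 57 to 84 counts in the 6m libraries and Psd4 70 to 314 over all libraries, so that counting error is largest for these. The SD of log2 CPM was 0.25 at 6m and 0.95 at 24m for Psd3, and 0.16 and 0.48 for Psd4.

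With library totals alone the median gene had a log2 fold change of 0.21, and 5449 genes were called higher and 1746 lower. In that setting 6 other exchange factors, 12 GTPase-activating proteins, 11 effectors and 2 binding partners were higher, and 0 other exchange factors were lower. Quantile normalization and DESeq2 also gave 0 other exchange factors lower and 2 binding partners higher, with 3573 of all genes called higher and 3891 lower. With the adjusted p alone, 1 of the 8 genes (Arf6) and 4999 of all genes were lower and 5479 of all genes higher, 7 other exchange factors and 2 other Arf GTPases were higher, 1 GTPase-activating protein was lower, and 2 binding partners were higher and 1 lower. With the length trend removed, 3554 of all tested genes were higher and 2871 lower, 2 other exchange factors were higher and 0 lower, 0 other Arf GTPases were lower, and 6 GTPase-activating proteins, 5 effectors and 0 binding partners were higher. With the GC trend removed, 3867 of all tested genes were higher and 3326 lower, 0 other exchange factors and 0 other Arf GTPases were lower, and 1 GTPase-activating protein and 1 binding partner were lower. Leaving out a library gave 1 to 2 binding partners higher (2 without 24m replicate 1, where 4673 of all tested genes were higher) and 0 to 1 other exchange factors lower (0 without 24m replicate 4). The causes were not tested.

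Of 378 values of the 18 other named genes under these alternatives, 368 kept their call, 10 lost it and 0 were reversed. Those lost were of Cyth2 (5 alternatives, -0.42 to -0.53), of Arf5 (-0.35 and -0.55 with the length and GC trends removed), and of Arfgef2 (0.577), Agap1 (0.50) and Gphn (0.49) with the length trend removed.

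The replicate numbers did not pair the libraries: same-numbered libraries deviated from their group means with correlations of 0.27, 0.14, 0.08 and -0.35, and not every library correlated best with its own number. With the replicate number as a block in the edgeR fit, 5 of the 8 genes were called higher and 0 lower, Psd4 not being called, as also by limma-voom without a block, and 4112 of all tested genes were called higher and 3130 lower. The 18 other genes followed through the alternatives kept their calls under the block.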
